A study of Tigriopus californicus with 4 samples.

Results

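The contigs described here carry product names of mitogen-activated protein (MAP) kinases and of the proteins around them in the marine copepod *Tigriopus californicus*. They were taken by words in the product name: mitogen-activated, map kinase, jun, p38, stress-activated, ras-related c3, dual specificity protein phosphatase or growth arrest, ignoring case. Names holding "map kinase-interacting", "juncti" or a square bracket were dropped. The words matched 43 of 20278 contigs of the San Diego (SD) population and 38 of 20931 contigs of the Santa Cruz (SC) population, 81 of 41209 in all. The rule itself uses no expression value. The deposited values cover fewer contigs than the assemblies the study reported, and "all contigs" below means those with deposited values. Of the 81, the contigs named prp38 (a splicing factor) and junctophilin (a protein of membrane junctions in muscle) matched through letters of their names alone. They are 3 SD and 2 SC contigs and are kept apart as "other".

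Messenger RNA was sequenced from pools of whole copepods of all life stages, 300 to 400 animals a pool, with 1 library for each condition and population. The groups were SD control, SD heat stress, SC control and SC heat stress. Heat stress was 1 h at 35°C with 1 h of recovery, and the control pools were kept at 20°C. The animals came from natural populations by way of laboratory culture. Values are RPKM, mapped reads scaled by contig length and by library total, computed within each population on its own assembly.

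In a MAP kinase cascade a MAP kinase kinase kinase (MAP3K) phosphorylates a MAP kinase kinase, which phosphorylates the MAP kinase. Extracellular signal-regulated kinases (ERK) are best known for growth factor signals, whereas p38 and the Jun N-terminal kinases (JNK) are known across animals for responses to heat, osmotic and oxidative stress. Dual specificity phosphatases remove the phosphates, scaffold proteins hold the kinases together, and the transcription factor Jun is among the targets. The switch itself is phosphorylation, which a messenger RNA level does not measure.

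Whole reads behind each RPKM value were recovered from the values (see the processing notes), to 1947202 reads in SD control, 5583127 in SD heat stress, 3256758 in SC control and 4948622 in SC heat stress. The heat stress library was thus 2.87 times as deep as the control in SD and 1.52 times in SC. Over all contigs above 0 in both libraries, the median fold change (heat stress over control) was 0.977 in SD and 1.32 in SC. Relative to "the median contig" below means divided by this shift. That value is given beside the SC contigs that were called or at least 2-fold higher or lower. Both controls shared a sequencing lane and both heat stress libraries the next, so lane and treatment cannot be told apart. With 1 library per condition no difference was checked against a replicate, and all intervals below are 95% exact (Clopper-Pearson) intervals of the recovered reads that cover counting error only. In pools of whole animals, fewer cells of a type and less RNA per cell cannot be told apart.

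Differences between the libraries were small for most signalling contigs in SD and wider and unequal in SC. In SD, 2 of 43 members were at least 2-fold higher after heat stress and 0 were at least 2-fold lower, where 9.3% and 5.56% of all SD contigs were. In SC, 6 of the 37 members above 0 in both libraries were at least 2-fold higher and 2 at least 2-fold lower, where 28.4% and 8.31% of all SC contigs were. Both SC shares were below those over all contigs. With the SC values scaled by the median contig, the split of 6 higher and 2 lower became 1 higher and 5 lower. Over all SC contigs so scaled, 18.1% were at least 2-fold higher and 16.6% at least 2-fold lower.

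The study's own test, Kal's *Z*-test of proportions, was run on the recovered reads with a Bonferroni adjusted *p* of at most 0.10 over all contigs of a population. It compares 2 libraries, not 2 conditions. It called 0 of 43 members in SD, where it called 1.4% of all contigs higher and 1.78% lower. Without adjustment, the interval of the fold change lay above 1 for 4 SD members (6.23% of all SD contigs) and below 1 for 3 (9.68%). In SC, Kal's test called 7 of 38 members higher, where 10.9% of all contigs were called higher, and 0 lower, where 7.03% were. The interval lay above 1 for 14 of 37 SC members (32.2% of all SC contigs) and below 1 for 5 (17.3%). Fisher's exact test on the same reads with the same adjustment called 0 members in SD and 7 in SC, and its *p* is printed below. Run on RPKM as shares in place of reads, Kal's test called 0 members in either population, where it called 2.59% of all SD and 5.54% of all SC contigs. In each population the study itself reported a smaller share of its contigs as significant at this threshold, most so in SC. Its counts were over larger assemblies, so the calls here are not the study's own. The words "rose" and "fell" below are used only of contigs that Kal's test called on the recovered reads.

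**Figure D1:**
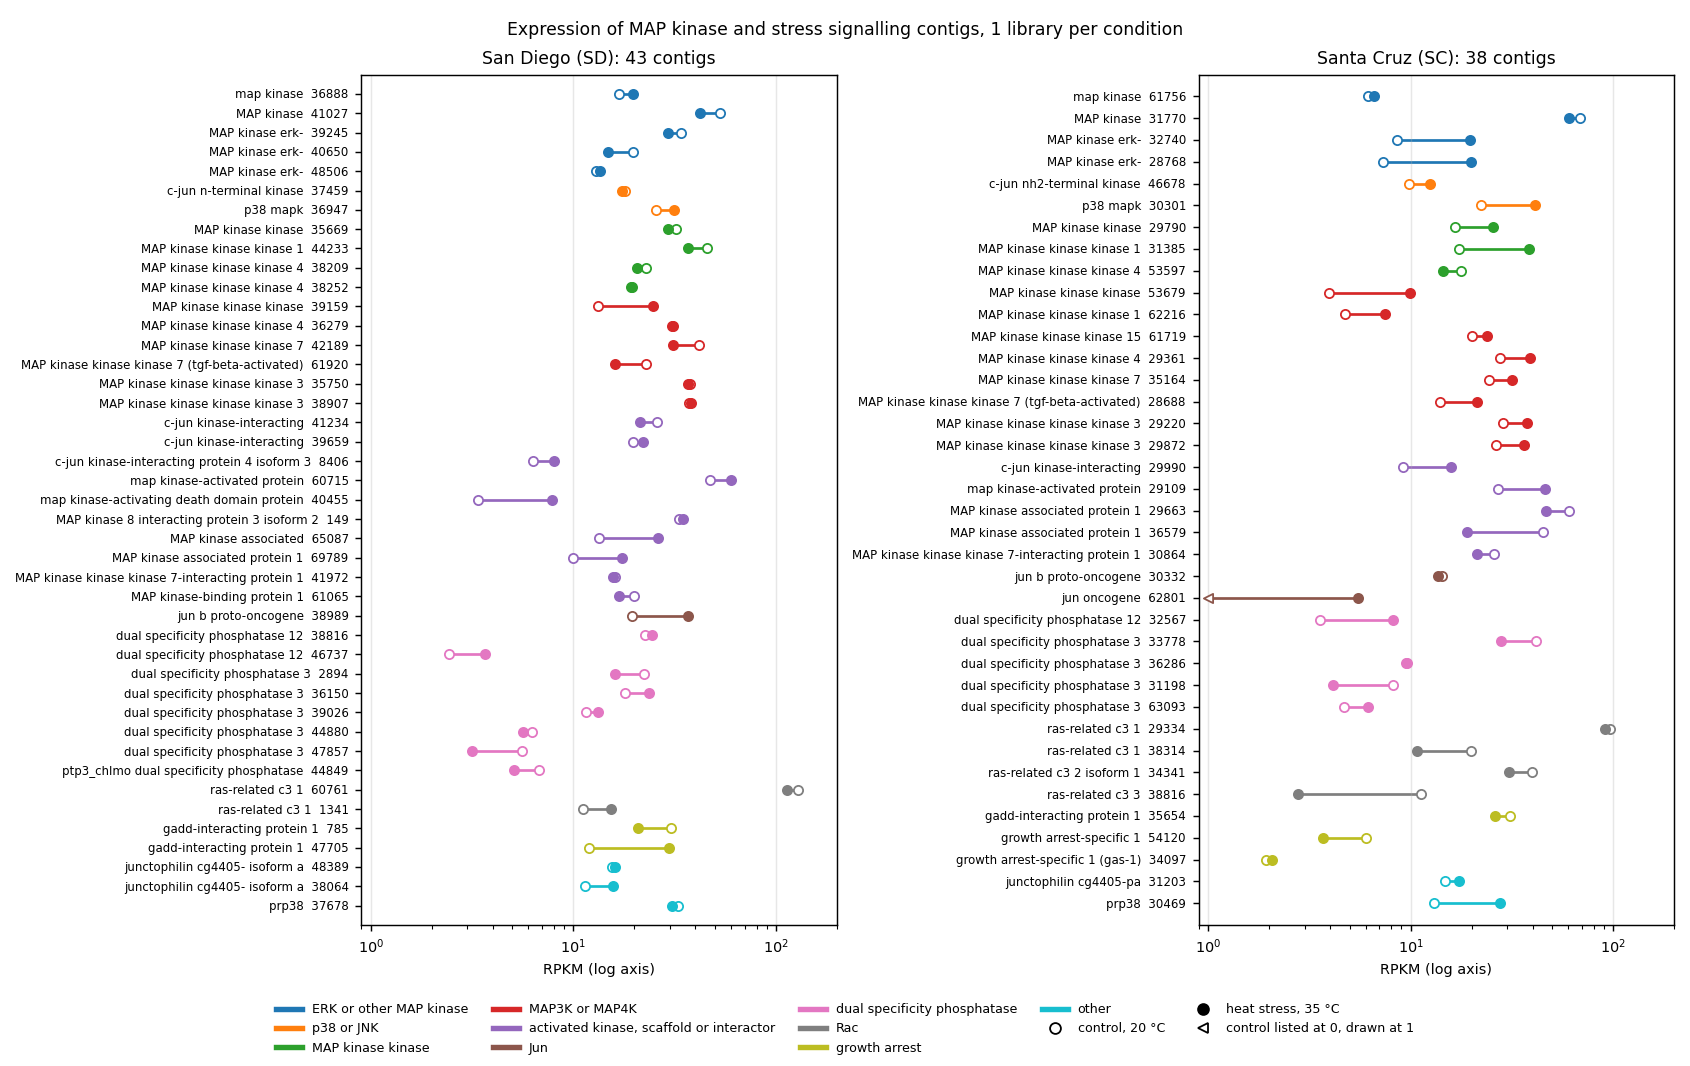
RPKM (log axis) of each member contig in the control library (open circles) and the heat stress library (filled circles) of SD (left, 43 contigs) and SC (right, 38 contigs), coloured by role. The ends of most SD pairs lie close together, and the SC pairs of the erk, p38 and MAP3K contigs open to the right, while all 4 SC Rac pairs open to the left.

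The ERK and other MAP kinases stand at the end of the cascade and phosphorylate its targets. The contig named mitogen-activated protein kinase with no further letters was the most abundant of them in both populations. In SD (SD_Contig41027) it was at 53.0 RPKM in the control and 42.1 RPKM after heat stress, a fold change of 0.794 (interval 0.653 to 0.970). In SC (SCN_Contig31770) it was at 68.9 and 60.1 RPKM, a fold change of 0.873 (interval 0.753 to 1.01). It was thus slightly lower after heat stress in both, and the SC interval included no change.

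The contigs named erk differed after heat stress in SC and not by a call in SD. In SC, SCN_Contig28768 was at 7.29 RPKM in the control and 19.9 RPKM after heat stress, and SCN_Contig32740 at 8.57 and 19.6 RPKM. Both rose, by 2.74-fold (interval 2.08 to 3.65) and 2.29-fold (interval 1.65 to 3.23), with adjusted *p* of 6.72e-11 and 0.0018 by Fisher's exact test. Scaled by the median contig the fold changes were 2.08 and 1.74, so that the second was no longer past 2-fold. They were above those of 87.3% and 77.3% of the SC contigs of like length and RPKM. The 3 SD contigs of that name had fold changes of 0.756 to 1.05, none called. Their control levels, 12.9 to 33.98 RPKM, were all above the 2 SC control levels, although the populations were mapped to separate assemblies and a level is not tested across them. The last contig of this role, named map kinase, had fold changes of 1.16 in SD and 1.07 in SC, with intervals that included no change.

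The stress-activated kinases were p38 and JNK, each on 1 contig in each population. In SC, p38 (SCN_Contig30301) was at 22.2 RPKM in the control and 41.1 RPKM after heat stress. It rose 1.85-fold (interval 1.52 to 2.26, adjusted *p* = 1.09e-06 by Fisher's exact test), and 1.41-fold relative to the median contig. In SD, p38 (SD_Contig36947) was at 25.5 and 31.2 RPKM, a fold change of 1.22 (interval 0.982 to 1.53). p38 was higher after heat stress in both populations, and its SD value was above those of 92.9% of the SD contigs of its length and level class, against 81.9% in SC. JNK, which phosphorylates Jun, was at 17.9 and 17.5 RPKM in SD (fold change 0.974, interval 0.747 to 1.28) and at 9.84 and 12.4 RPKM in SC (fold change 1.26, interval 0.925 to 1.74). Neither interval excluded no change, and the SC value was below that of the median contig.

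MAP kinase kinases carry the signal from the MAP3Ks to the MAP kinases. MAP kinase kinase 1, the activator of ERK, was the most abundant of them in SD. In SC (SCN_Contig31385) it was at 17.3 RPKM in the control and 38.4 RPKM after heat stress, and it rose 2.22-fold (interval 1.66 to 2.995, adjusted *p* = 0.000116 by Fisher's exact test). In SD (SD_Contig44233) it was at 45.6 and 36.9 RPKM, a fold change of 0.808 (interval 0.632 to 1.04). After heat stress the levels lay close together, at 36.9 RPKM in SD and 38.4 RPKM in SC, from control levels that were far apart. The populations were mapped to separate assemblies, and levels were not tested across them. Relative to the median contig the SC fold change of MAP kinase kinase 1 was 1.69, no longer past 2-fold.

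MAP kinase kinase 4, an activator of JNK and p38, did not share this pattern. Its SC contig (SCN_Contig53597) was at 17.8 RPKM in the control and 14.5 RPKM after heat stress, a fold change of 0.817 (interval 0.668 to 1.001), above those of 11.3% of the contigs of its class. Its 2 SD contigs had fold changes of 0.908 and 0.983. The remaining contig, named dual specificity mitogen-activated protein kinase without a number, was at 16.5 and 25.4 RPKM in SC (fold change 1.54, interval 1.26 to 1.88, adjusted *p* = 0.265 by Fisher's exact test) and at 31.9 and 29.2 RPKM in SD (fold change 0.915, interval 0.729 to 1.16). All 4 SD contigs of this role were lower after heat stress and 2 of the 3 SC contigs higher, and none but SC MAP kinase kinase 1 was called.

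The MAP3Ks and the MAP kinase kinase kinase kinases (MAP4K) above them take up signals from receptors and stress sensors. In SC, 8 of 8 contigs of this role were higher after heat stress, with fold changes of 1.18 to 2.53, and 5 of the 8 were above the median contig. In SD, 3 of 6 were higher, with fold changes of 0.704 to 1.87. Over all contigs, 63.9% were higher in SC and 46.7% in SD.

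MAP3K4, an activator of the p38 and JNK branches in mammals, was the longest member by recovered length, at 5398 bp in SC and 4533 bp in SD. In SC (SCN_Contig29361) it was at 27.5 RPKM from 484 control reads, and at 38.6 RPKM from 1031 heat stress reads. It rose 1.402-fold (interval 1.26 to 1.57, adjusted *p* = 9.46e-06 by Fisher's exact test), and 1.07-fold relative to the median contig. In SD (SD_Contig36279) it was at 30.7 and 30.9 RPKM, a fold change of 1.01 (interval 0.875 to 1.16). The SD length and reads are less sure than those of other members, since a fit to whole reads as good as this one had a chance of 0.305.

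The contig named MAP kinase kinase kinase with no number had the largest fold change of this role in both populations. In SC (SCN_Contig53679) it was at 3.94 RPKM in the control and 9.98 RPKM after heat stress, a fold change of 2.53 (interval 1.35 to 5.08) from 13 and 50 reads. In SD (SD_Contig39159) it was at 13.2 and 24.7 RPKM, a fold change of 1.87 (interval 1.10 to 3.34) from 17 and 91 reads. Neither was called by Kal's test, and relative to the median contig the SC fold change was 1.92, no longer past 2-fold.

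MAP3K7, also named TGF-beta-activated kinase 1, acts in inflammatory and stress signalling and was on 2 differently named contigs in each population. In SD both were lower after heat stress. The contig with the short name (SD_Contig42189) was at 41.7 and 31.0 RPKM, a fold change of 0.744 (interval 0.554 to 1.01), and the contig with the long name (SD_Contig61920) at 22.9 and 16.1 RPKM, a fold change of 0.704 (interval 0.504 to 0.994). In SC both were higher, the short name (SCN_Contig35164) at 24.3 and 31.8 RPKM with a fold change of 1.31 (interval 0.957 to 1.80), and the long name (SCN_Contig28688) at 13.96 and 21.3 RPKM with a fold change of 1.52 (interval 1.22 to 1.91). None of the 4 was called, and relative to the median contig the SC fold changes were 0.992 and 1.16.

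MAP4K3, the only MAP4K among the names, was likewise on 2 contigs in each population, and contigs of the name moved alike within a population. Its SD contigs had fold changes of 0.985 and 1.03. Its SC contigs had fold changes of 1.31 (SCN_Contig29220, 28.7 RPKM in the control and 37.7 RPKM after heat stress) and 1.37, close to the median contig of 1.32. The SC contigs of MAP3K1 and of MAP3K15, which is known from osmotic stress in mammals, had fold changes of 1.57 (interval 1.001 to 2.51) and 1.18 (interval 0.982 to 1.42).

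**Figure D2:**
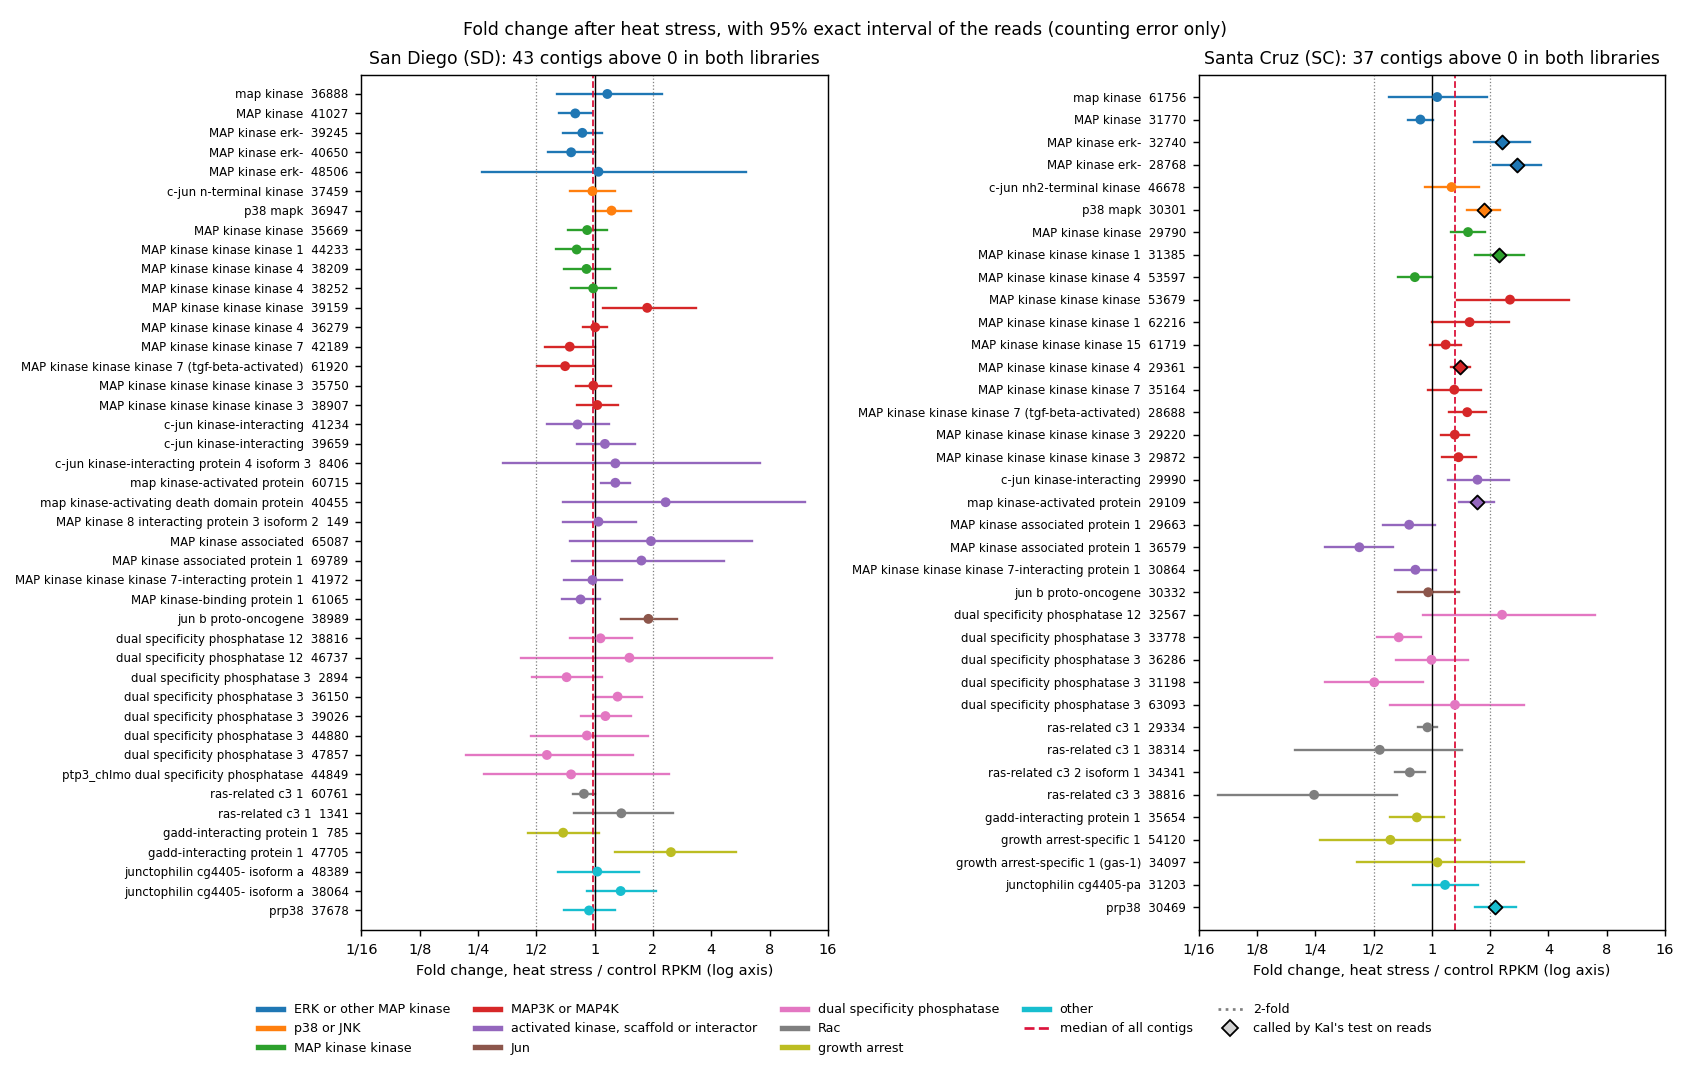
Fold change of each member (heat stress over control RPKM, log axis) with the 95% exact interval of the reads, in SD (left, 43 contigs) and SC (right, the 37 contigs above 0 in both libraries), with diamonds for calls by Kal's test and dashed lines at the median of all contigs. The 7 diamonds are all in SC and all to the right of its dashed line at 1.32, and the long bars belong to contigs with few reads.

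The activated kinases, scaffolds and interactors bind the kinases or are switched on by them. The contig named map kinase-activated protein was higher in both populations. In SC (SCN_Contig29109) it was at 27.1 RPKM in the control and 46.1 RPKM after heat stress and rose 1.70-fold (interval 1.39 to 2.10, adjusted *p* = 0.00234 by Fisher's exact test), and 1.29-fold relative to the median contig. In SD (SD_Contig60715) it was the most abundant of the role, at 47.1 and 60.2 RPKM, with a fold change of 1.28 (interval 1.08 to 1.51) that Kal's test did not call.

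The MAP kinase associated protein 1, in mammals a subunit of the TOR complex 2, was on 2 SC contigs that were both lower after heat stress. SCN_Contig29663 was at 60.7 and 46.3 RPKM, a fold change of 0.764 (interval 0.561 to 1.04). SCN_Contig36579 was at 45.1 and 19.1 RPKM, a fold change of 0.422 (interval 0.281 to 0.629) and 0.321 relative to the median contig. The second was past 2-fold, from 67 and 43 reads, with an adjusted *p* of 0.113 by Kal's test and 0.182 by Fisher's exact test, both over the threshold of 0.10. The SD contig of that name was at 9.99 and 17.4 RPKM, higher after heat stress, from 7 and 35 reads with an interval of 0.763 to 4.65.

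Of the scaffolds of the JNK branch, 1 SC contig lay outside its counting error and none was called. The contigs named c-jun-amino-terminal kinase-interacting had fold changes of 0.816 and 1.13 in SD. The SC contig (SCN_Contig29990) was at 9.22 and 15.9 RPKM, a fold change of 1.72 (interval 1.21 to 2.49) that was not called. The SD contigs of the JNK-interacting protein 4 and of the MAP kinase 8 interacting protein 3 had fold changes of 1.28 and 1.05, and MAP kinase-binding protein 1, a JNK scaffold in mammals, had 0.846, all with intervals that included no change. The MAP3K7-interacting protein 1, which binds and activates MAP3K7, was slightly lower in both populations, at 0.974 in SD and 0.823 in SC. The SD contig of the MAP kinase-activating death domain protein (SD_Contig40455) was 1 of the 2 SD contigs past 2-fold, at 3.38 and 7.86 RPKM, but it rested on 3 and 20 reads and its interval ran from 0.690 to 12.2. The last SD contig, named MAP kinase associated (SD_Contig65087), was at 13.4 and 26.3 RPKM from 5 and 28 reads, with an interval of 0.745 to 6.48.

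Jun pairs with Fos in the AP-1 transcription factor, which is known to be induced within the hour by many stresses. Jun b was the member most unlike the contigs around it in SD. SD_Contig38989 was at 19.5 RPKM in the control and 36.9 RPKM after heat stress, from 44 and 239 reads, a fold change of 1.89 (interval 1.37 to 2.68) above those of 99.0% of the SD contigs of its length and level class. Neither Kal's test nor Fisher's exact test called it over all contigs (adjusted *p* = 0.851 by Fisher's exact test). In SC (SCN_Contig30332) it was at 14.2 and 13.6 RPKM, a fold change of 0.957 (interval 0.671 to 1.37), above only 18.6% of its class. Jun b was thus higher after heat stress in SD and near its control level in SC, where the median contig was higher. A second SC contig, named jun oncogene (SCN_Contig62801), is only 147 bp long. Its control value is listed at 0, its heat stress value was 5.50 RPKM from 4 reads, and no fold change is given.

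Dual specificity phosphatases, which take the phosphates off MAP kinases, were on 8 SD and 5 SC contigs, and none was called. Phosphatase 3, which acts on ERK and JNK in mammals, was on 5 of the SD and 4 of the SC contigs. Its SD contigs had fold changes of 0.567 to 1.31, with the highest on SD_Contig36150 at 17.9 RPKM in the control and 23.5 RPKM after heat stress (interval 0.993 to 1.76). Its SC contigs had fold changes of 0.505 to 1.32. The most abundant of these (SCN_Contig33778) was at 41.4 and 28.0 RPKM, a fold change of 0.675 (interval 0.520 to 0.875), and SCN_Contig31198 was at 8.17 and 4.12 RPKM, a fold change of 0.505 (interval 0.280 to 0.898) and 0.383 relative to the median contig, above those of 2.15% of its class. Contigs of this name thus lay on both sides of no change in each population.

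Phosphatase 12 was at 22.7 and 24.3 RPKM on its abundant SD contig (SD_Contig38816), a fold change of 1.07 (interval 0.748 to 1.56). Its weak SD contig had 3 and 13 reads, and its SC contig (SCN_Contig32567), at 3.56 and 8.19 RPKM, was past 2-fold at 2.30 from 6 and 21 reads with an interval of 0.899 to 6.98, and at 1.75 relative to the median contig. The remaining SD contig, with a name that begins ptp3_chlmo, was at 0.756 (interval 0.268 to 2.42).

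The contigs named ras-related c3 botulinum toxin substrate are Rac, small GTPases that act on the actin cytoskeleton and can switch on JNK and p38. Rac1 held the most abundant member of either population. In SD (SD_Contig60761) it was at 128 RPKM in the control and 113 RPKM after heat stress, a fold change of 0.880 (interval 0.778 to 0.998), and in SC (SCN_Contig29334) at 96.1 and 91.2 RPKM, a fold change of 0.949 (interval 0.851 to 1.06). Both were slightly lower after heat stress. All 4 SC Rac contigs were lower than in the control, and none was called. Over all SC contigs 63.9% were higher. Relative to the median contig the 4 fold changes ran from 0.188 (Rac3) to 0.721 (the abundant Rac1 contig). Against SC contigs of like length and RPKM, the abundant Rac1 contig was above 56.3%, in a class with a median log2 fold change of -0.21. Rac2, the short Rac1 contig and Rac3 were above 18.6%, 14.7% and 2.04% of their classes. Rac2 was at 39.9 and 30.7 RPKM (fold change 0.770, interval 0.643 to 0.922). Rac3 (SCN_Contig38816) was at 11.3 and 2.79 RPKM, the largest decrease of any member, with a fold change of 0.247 (interval 0.0791 to 0.664) from 16 and 6 reads. The short Rac1 contigs had fold changes of 1.37 in SD and 0.538 in SC, with intervals that included no change. The short SC contig rested on 11 and 9 reads.

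The growth arrest names belong to 2 unrelated proteins. The protein that interacts with growth arrest and DNA-damage-inducible proteins, in mammals a part of the mitochondrial ribosome, was on 2 SD contigs that moved apart. SD_Contig47705 was at 12.0 RPKM in the control and 29.6 RPKM after heat stress, a fold change of 2.48 (interval 1.27 to 5.39) from 10 and 71 reads, and SD_Contig785 was at 30.3 and 20.8 RPKM, a fold change of 0.688 (interval 0.454 to 1.06). The first was the only SD member past 2-fold whose interval excluded no change, as 3% of all SD contigs were. In SC, 5 members were at least 2-fold higher with such an interval, where 20.8% of all contigs were. The SC contig (SCN_Contig35654) was at 31.0 and 25.95 RPKM, a fold change of 0.837 (interval 0.605 to 1.16). The growth arrest-specific protein 1, a membrane protein of Hedgehog signalling in mammals, was at 0.611 and 1.07 on 2 SC contigs, from 14 and 13 reads and from 8 and 13 reads.

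Among the contigs matched by letters alone, prp38 rose in SC (SCN_Contig30469), from 13.1 to 27.7 RPKM, by 2.12-fold (interval 1.67 to 2.71, adjusted *p* = 9.76e-07 by Fisher's exact test). This was 1.61-fold relative to the median contig, no longer past 2-fold. In SD (SD_Contig37678) it was at 32.9 and 30.8 RPKM, a fold change of 0.936 (interval 0.697 to 1.27). Junctophilin had fold changes of 1.03 and 1.36 in SD and, at 14.8 and 17.3 RPKM, 1.17 in SC (SCN_Contig31203, interval 0.802 to 1.73). Without these contigs, 6 of the 7 SC calls by Kal's test remained.

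Over all members above 0 in both libraries, the median log2 fold change was 0.01 in SD and 0.24 in SC. Over all contigs it was -0.03 in SD and 0.40 in SC. The SD members thus had a median near that of all contigs, and the SC members a median 0.16 lower than that of all contigs on the log2 scale. Contigs of the same libraries are not replicates, so these differences were not tested. In SD 22 of 43 members were higher after heat stress, and in SC 22 of 37.

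**Figure D3:**
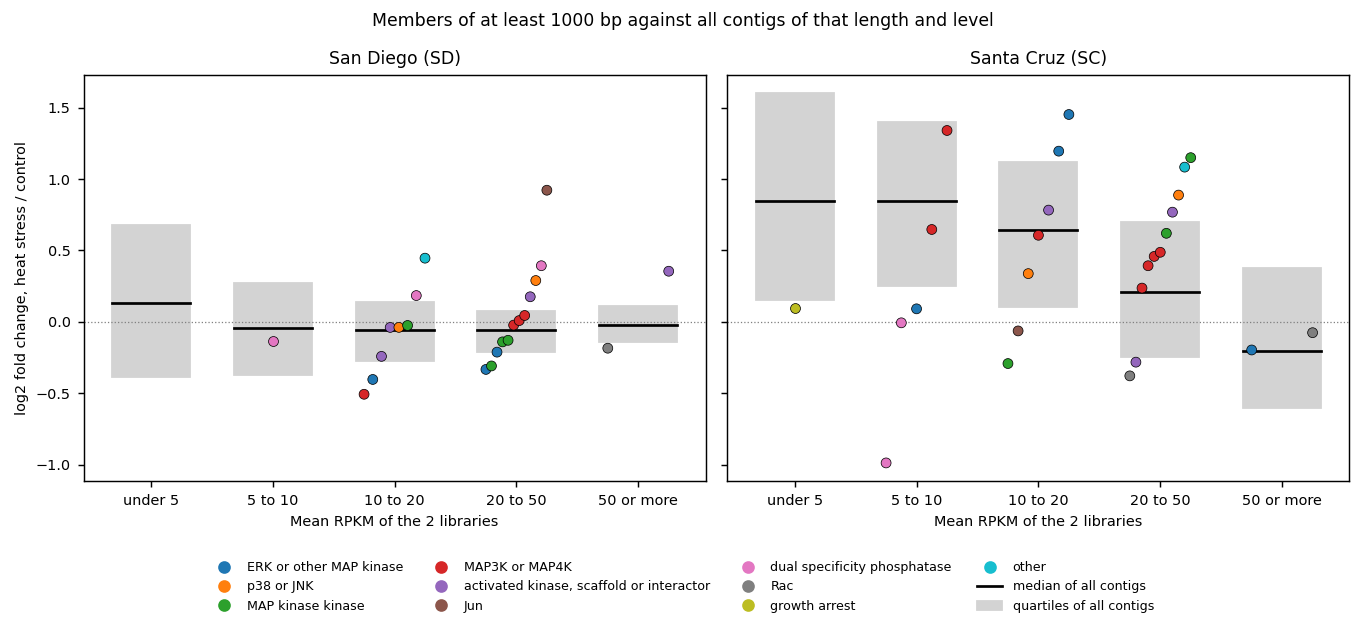
log2 fold change of the members of at least 1000 bp, by mean RPKM of the 2 libraries, over the median (line) and the range between the quartiles (grey) of all contigs of that length and level, in SD (left, 23 members) and SC (right, 26 members); points are spread sideways within a class only to be seen. The SC lines go down from 0.85 to -0.21 with level while the SD lines stay near 0, and Jun b in SD stands well above its class.

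In SC the fold change of all contigs moved with their level and length. Among contigs of at least 1000 bp the median log2 fold change was 0.85 under 5 RPKM, 0.85 from 5 to 10 RPKM, 0.64 from 10 to 20 RPKM, 0.21 from 20 to 50 RPKM and -0.21 from 50 RPKM. In SD the same medians lay between -0.06 and 0.13. The part of this trend in the SC results was not tested. The 26 SC members of at least 1000 bp had a median log2 fold change of 0.43, the same to 2 decimals as that of all 7629 contigs of that length, and 15 of the 26 were above the median of their own class. All 7 calls by Kal's test were among these 26, where 32.5% of all contigs of at least 1000 bp were called. The fold changes of the 7 were above those of 65.6% (MAP3K4) to 90.1% (MAP kinase kinase 1) of the SC contigs of their class. Of the 11 shorter SC members above 0 in both libraries, 2 were above their class median and the median log2 fold change of the 11 was -0.39. In SD, 13 of 23 long and 14 of 20 short members were above theirs.

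Names carried by exactly 1 contig in SD and 1 in SC allowed the responses to be set side by side. There were 13 such names among the members, of 4397 among all contigs. They are matched by name alone and need not be the same gene. The fold change was larger in SD for 3 names and larger in SC for 10. Over all shared names above 0 in all 4 libraries 40.4% were larger in SD. Relative to the median contig of each population, 5 of the 13 were larger in SD, where 59.3% of all names were. Of the 13, 5 were higher after heat stress in both populations, 2 lower in both, 5 lower in SD and higher in SC, and 1, Jun b, higher in SD and lower in SC.

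**Figure D4:**
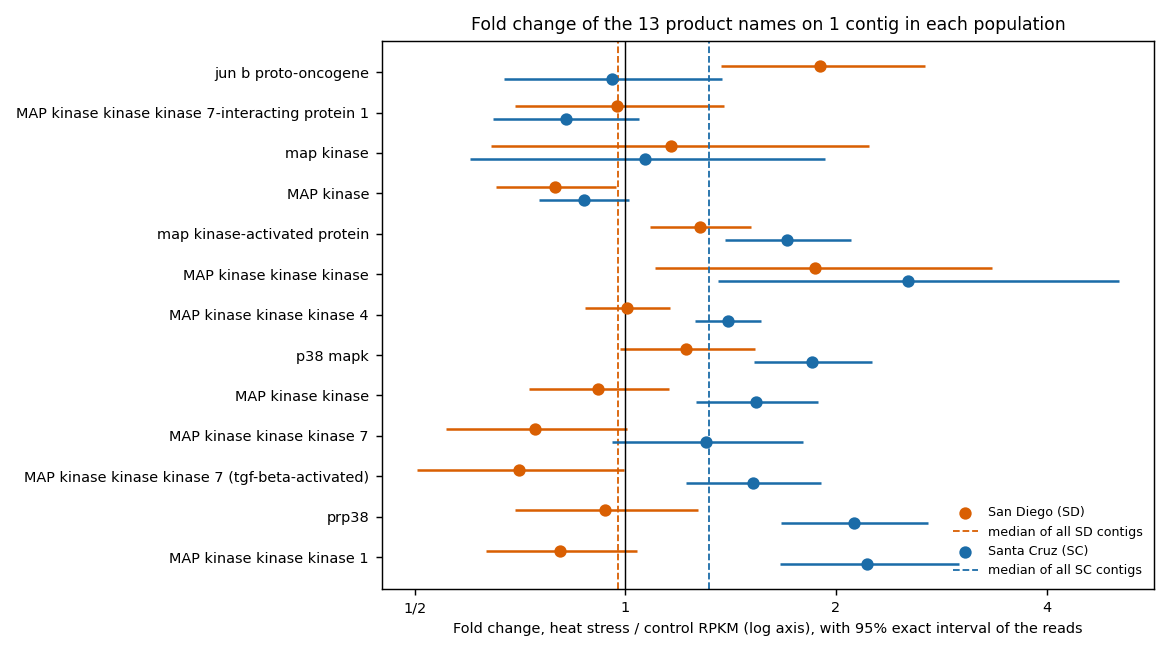
Fold change (heat stress over control RPKM, log axis) with the 95% exact interval of the reads for the 13 product names on 1 contig in each population, in SD (orange) and SC (blue), with dashed lines at the median of all contigs of each. The names are ordered by the difference between the populations, with Jun b at the top, where SD was higher (1.89 against 0.957), and MAP kinase kinase 1 at the bottom, where SC was higher (2.22 against 0.808).

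The difference in fold change was tested by an exact conditional test on the reads of the 4 libraries, Bonferroni adjusted over all 4397 names. It called 1 of the 13, where 17.4% of all names were called. This was MAP kinase kinase 1, with a log2 fold change 1.46 lower in SD than in SC (adjusted *p* = 0.000428 by the exact test). Relative to the median contig of each population the difference was -1.03 (adjusted *p* = 0.774 by the exact test) and 0 of the 13 were called, where 18.3% of all names were. Jun b lay at the other end, with a difference of 0.98 that was not called as deposited (adjusted *p* = 1 by the exact test) or relative to the median contig (1.41, adjusted *p* = 0.188 by the exact test). The difference in MAP3K7 under its long name was -1.11 (adjusted *p* = 0.9004 by the exact test). Like the calls within a population, this test compares libraries.

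The control levels of the shared names were higher in SD for 11 of the 13, where 58.1% of all shared names were, and after heat stress for 6 of the 13, where 48.3% were. These levels come from tables normalized separately and were not tested.

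Other genes of the pathway, or named after its proteins, were taken by a list of product names outside the rule. The list found 44 contigs in SD and 43 in SC. Kal's test called 2 of the SD contigs higher and 0 lower, where 1.4% and 1.78% of all SD contigs were called. It called 7 of the SC contigs higher and 3 lower, where 10.9% and 7.03% of all SC contigs were called. The 2 SD contigs carried the names *kayak* and MAP kinase-interacting kinase 1, which were also called in SC. Genes of both names were already reported as significant in both populations by the study. The list was chosen with earlier results of these data known. Its shares therefore cannot serve as a test against all contigs. The *fos* homologue *kayak*, the partner of Jun in AP-1, rose in both populations. It went from 31.7 to 112 RPKM in SD (SD_Contig68590), 3.54-fold (interval 2.91 to 4.33), and from 17.3 to 68.3 RPKM in SC (SCN_Contig29173), 3.93-fold (interval 3.15 to 4.96) and 2.99-fold relative to the median contig. The test of the difference did not call it (log2 difference -0.15, adjusted *p* = 1 by the exact test). *kayak* was thus well above its control level in both. Jun b was called in neither.

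The MAP kinase-interacting kinase 1, which ERK and p38 switch on and which phosphorylates the translation factor eIF4E, also rose in both. It went from 179 to 295 RPKM in SD (SD_Contig35580), 1.64-fold (interval 1.54 to 1.75), and from 80.0 to 168 RPKM in SC (SCN_Contig28793), 2.10-fold (interval 1.94 to 2.27) and 1.59-fold relative to the median contig. A second SD contig of the name was at 7.34 and 8.28 RPKM and was not called. The ribosomal protein S6 kinase alpha, a direct substrate of ERK, rose in SC from 6.48 to 22.5 RPKM (SCN_Contig28975), 3.48-fold (interval 2.69 to 4.55, and 2.64 relative to the median contig), and was at 24.2 and 25.5 RPKM in SD (SD_Contig37398), a fold change of 1.05 (interval 0.765 to 1.47). The difference was called as deposited (log2 difference -1.72, adjusted *p* = 9.14e-05 by the exact test) and missed the threshold of 0.10 relative to the median contig (-1.29, adjusted *p* = 0.113 by the exact test).

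The SC contigs of the list that rose also included the activating transcription factor 7-interacting protein 1 (9.25 to 25.5 RPKM, 2.75-fold, and 2.09 relative to the median contig), a protein phosphatase 2C (7.92 to 20.3 RPKM, 2.56-fold, and 1.95 relative to the median contig) and 14-3-3 epsilon (63.3 to 84.0 RPKM, 1.33-fold). The last did no more than the median contig, at 1.01 relative to it. The activating transcription factor 7-interacting protein 1 was lower in SD, at 35.6 and 25.9 RPKM, and the difference was called as deposited (-1.92, adjusted *p* = 2.66e-20 by the exact test) and relative to the median contig (-1.49, adjusted *p* = 3.25e-11 by the exact test). The list took this contig by the words activating transcription factor, and its name is that of a binding partner, not of the factor. Its part in MAP kinase signalling was not tested. The 3 that fell in SC were 14-3-3 zeta (572 to 369 RPKM, 0.645, and 0.490 relative to the median contig), a further 14-3-3 contig, named cg17870 (471 to 416 RPKM, 0.883 and 0.671), and a ras-like protein (38.6 to 10.8 RPKM, 0.279 and 0.212). For cg17870 the difference between the populations was not called as deposited (0.06, adjusted *p* = 1 by the exact test) and was called relative to the median contig (0.49, adjusted *p* = 5.75e-14 by the exact test). All SC contigs from 50 RPKM had a median log2 fold change of -0.21 at 1000 bp or more and -0.35 when shorter. The SC log2 fold change of cg17870 was -0.18, above both. The part of level in its value relative to the median contig was not tested. No contig of the list carried the name of the MAP3K Raf in either population.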

How the data were processed

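Per the labels and the study's methods, the authors mapped the reads of each library to the assembly of its own population with CLC Genomics Workbench version 4.5 (read overlap 0.5, similarity 0.99), summed the reads on each contig, and deposited RPKM values with BLAST product names. The study describes the mapped reads as uniquely mapped, so contigs that are near-identical copies may have lost reads. The column of GenBank numbers was not used. The tables of the populations were handled apart.

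Members were matched by product name, and the members and lists were chosen with earlier results of these data known. Since the values are RPKM, the main call was a fold change of at least 2 or at most 0.5, over contigs above 0 in both libraries. Whole reads were recovered by trying library totals and, for each contig, lengths of 36 to 10000 bp, and keeping the shortest length at which both RPKM values gave whole reads. The reads are lower bounds, so intervals from them are if anything too wide for counting error. They hold no variation between pools, libraries or lanes. The chance of such a fit was under 0.05 for 40 of 43 SD and 38 of 38 SC members. A contig listed at 0 was given no fold change. Kal's *Z*-test and Fisher's exact test were run on these reads over all contigs (Bonferroni at 0.10). Recovery and calls were tested on simulated data.

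Contigs named with values were those called by Kal's test, those past 2-fold with more than 10 reads in a library and an interval that excluded 1, the most abundant control contig of each role, and the shared names that differed most. Other values complete a role and were chosen after they had been seen. The values of 1 called contig of the pathway list are not reported here. The alternatives were other thresholds, tests, scaling by the median contig, filters on reads or RPKM, and 0.1 or 1 RPKM added. Leaving out prp38 and junctophilin, and the exact test of the difference between populations, were added after seeing the data. Python 3.11.15, NumPy 2.4.6, SciPy 1.17.1, pandas 2.3.3 and matplotlib 3.10.9 were used.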

Additional observations from a re-analysis of the deposited data

Results flagged for a closer look

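MAP kinase kinase 1 was singled out because the test of its difference in response between the populations passed the threshold, with a log2 fold change of -0.31 in SD and 1.15 in SC, a difference of -1.46. Relative to the median contig of each population the difference was -1.03 and was not called (adjusted *p* = 0.774 by the exact test). MAP3K7 under its long name (TGF-beta-activated kinase 1) was singled out because it was lower after heat stress in SD and higher in SC with both intervals clear of no change, a difference of -1.11 on the log2 scale that the exact test did not call (adjusted *p* = 0.9004). Relative to the median contig that difference was -0.68, with an SC fold change of 1.16.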

How the results depend on the processing

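No paired analysis was possible because each condition and population has 1 library, and for the same reason no replicate could be left out. The 2 SD members past 2-fold became 0 under Kal's test on recovered reads or on RPKM shares and under Fisher's exact test. They also became 0 at 3-fold, where 7.18% of all SD contigs passed either way, and with more than 10 reads in both libraries. The number was 1 when the interval also had to exclude no change. At 1.5-fold it was 8 (7 higher, 1 lower, against 15.9% and 13.2% of all SD contigs). The 8 SC members past 2-fold became 0 under Kal's test on RPKM shares and 1 at 3-fold, where 16.6% of all SC contigs passed either way. They became 17 at 1.5-fold (12 higher, 5 lower, against 42.5% and 17.6% of all SC contigs). Under Kal's test with Benjamini-Hochberg adjustment at 0.05 the number was 18 (13 higher, 5 lower, against 29.6% and 16.2%). Scaled by the median contig, 6 SC members were past 2-fold, but 1 higher and 5 lower in place of 6 and 2. Over all SC contigs so scaled, 18.1% were higher and 16.6% lower. The SC median log2 fold change was -0.16 relative to the median contig, in place of 0.24. The number of shared names with a larger response in SD was 3, and 5 relative to the median contig. By the exact test, 0 were called in that direction, and the 1 call in the other, MAP kinase kinase 1, was lost relative to the median contig. Of the 30 contigs named by the rule, all 30 kept direction and call with 1 RPKM added and 24 did relative to the median contig. Then 4 SC contigs lost the 2-fold call (MAP kinase kinase 1, an erk contig, the MAP3K without a number and prp38) and 2 SC contigs changed sign, junctophilin (SCN_Contig31203) to -0.17 and MAP4K3 (SCN_Contig29220) to -0.00327. Depth limited the short contigs most, as in the SD control library, where 3 reads stood behind the death domain protein.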
